A study of Mus musculus with 4 samples.

Results

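The nuclear genes of oxidative phosphorylation were examined in a count of transcript 5′ ends from mouse skeletal muscle. Members were all sites off the mitochondrial chromosome whose gene symbol begins with Ndufa, Ndufb, Ndufc, Ndufs, Ndufv, Uqcr, Cox4 to Cox8 or Atp5, or is Sdha, Sdhb, Sdhc, Sdhd, Cyc1 or Cycs, with processed pseudogenes left out. The rule kept 214 of 42207 sites and 72 of 9838 genes. It used the symbol and the chromosome but no measured value. Whole transcriptome start site sequencing (WTSS-seq), which reads the ends where transcripts or their fragments begin, was run on total RNA depleted of ribosomal RNA. The knockout libraries (KO, n = 2) came from adult AMPKα2-/- mice on the C57BL/6 background, which lack part of the sequence for the catalytic domain of the AMP-activated protein kinase subunit AMPKα2. The control libraries (WT, n = 2) came from adult wild-type mice. The muscle was the gastrocnemius, and all 4 libraries were prepared by the same protocol.

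Oxidative phosphorylation is the last stage of respiration. Complex I and complex II pass electrons to ubiquinone, complex III hands them to cytochrome c, complex IV passes them to oxygen, and complex V (ATP synthase) uses the proton gradient to make ATP. Most subunits are encoded in the nucleus and a few by mitochondrial DNA, and skeletal muscle uses some subunit isoforms that other tissues use less. AMPK senses a low energy charge and is known as a regulator of mitochondrial gene expression in muscle.

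Libraries held 1300069 to 2900279 reads, and members took 0.484% to 0.859% of the reads outside mitochondrial and ribosomal RNA. Of the member genes, 68 to 72 had a read in each library. A count of 3 reads, taken as the limit under which a gene was not told from 0, was 1.03 to 2.31 ppm of the reads. All 12 skeletal muscle markers (Acta1, Ckm, Myh4 and others) were detected in every library. Prkaa2, which encodes AMPKα2, had 149 and 183 normalized counts in KO against 153 and 186 in WT over 19 sites, giving a log2 fold change of -0.03 ± 0.50 (SE) and an adjusted p of 0.994 by DESeq2. The study gives the deletion as a stretch of amino acids of the catalytic domain, which was not placed on the genome here, and the sum over sites mixes retained and possibly deleted parts, so Prkaa2 did not check the labels. The study profiled 2 KO and 2 WT animals, so p-values measure the spread between these animals and their libraries together. Normalized counts are reads divided by the size factor of the library, and values of a group are given as replicate 1 and then replicate 2. In whole muscle, fewer cells of a type and less RNA per cell cannot be told apart.

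No member gene passed the test between KO and WT, and the summed level of the members differed less between genotypes than between replicates. DESeq2 gave an adjusted p to 44 members, of which 0 were called at an adjusted p under 0.1, against 2.67% of all 4688 genes tested. At an unadjusted p under 0.05 by DESeq2 there were 2 members of the 72, against 677 of all 9838 genes. They were Ndufaf2 and Ndufc2, and both were too low to receive an adjusted p. The quasi-likelihood test of edgeR called 0 of 55 members, with 1 at an unadjusted p under 0.05. The share that edgeR called over all genes was not counted, so its 0 cannot be set beside other genes. The median log2 fold change of the 44 members was 0.02, beside 0.01 over all tested genes, with 23 members above 0 and 21 below. Both KO libraries lay above both WT libraries in 3 tested members, Ndufaf6, Uqcrq and Ndufa4, a pattern seen in 22% of all tested genes. They lay below in 7, which were Ndufa5, Ndufa8, Sdhb, Cox7a2, Atp5a1, Atp5b and Atp5f1, against 19.4% of all tested genes.

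The 28 members without an adjusted p had 11 to 64 reads over the 4 libraries, and the 44 with one had at least 70. The precision limits what can be said of single genes. The SE of the log2 fold change ran from 0.40 to 1.38 with a median of 0.88, and 95% intervals lay within 1 log2 unit of 0 for 2 members, Uqcrh and Uqcrb. Leaving out 1 library moved the median of the members to -0.39 without WT replicate 1, -0.30 without KO replicate 2, 0.05 without KO replicate 1 and 0.37 without WT replicate 2.

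**Figure D1:**
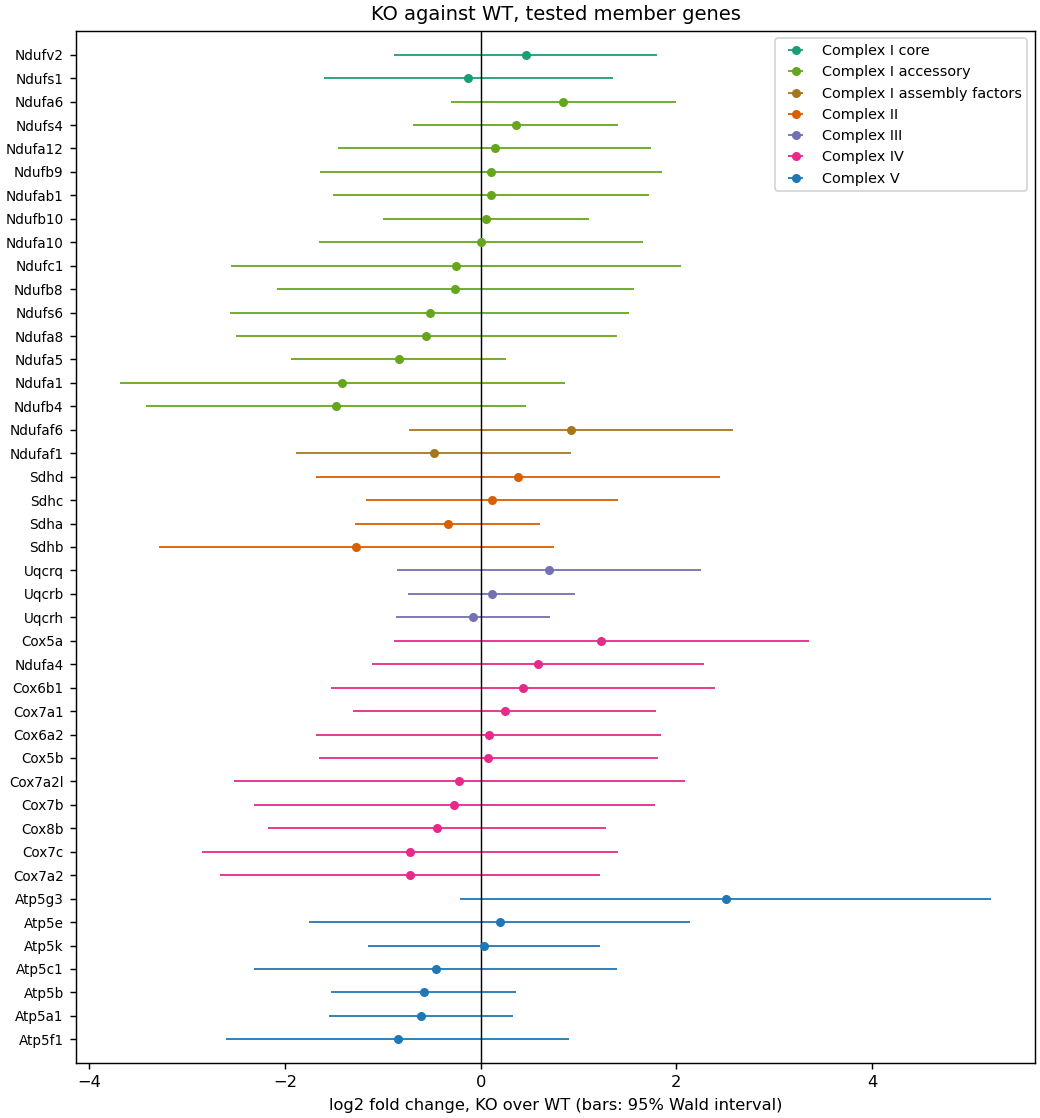
Log2 fold change of KO over WT on the horizontal axis for 43 of the 44 member genes with an adjusted p, coloured by complex, with points for the DESeq2 estimate and bars for the 95% interval. Every bar crosses 0, and points lie on both sides of it, from -1.48 for Ndufb4 to 2.50 for Atp5g3.

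Complex I core subunits, which carry electrons from NADH to ubiquinone, had few reads, and 6 of the 7 listed were analysed. Their summed level was 154 and 149 normalized counts in KO against 121 and 151 in WT, a log2 ratio of 0.16. Ndufv2, an iron-sulphur subunit of the NADH-oxidizing module, had 76.3 and 66.4 normalized counts in KO against 33.6 and 69.8 in WT. In KO replicate 1, 76 of its 125 reads lay at 1 intronic site, which had 4 reads in KO replicate 2 and 7 and 14 in WT. Ndufs1, the large iron-sulphur subunit, had 38.5 and 38.4 in KO against 49.1 and 34.9 in WT. In both genes the groups overlapped, and neither was called by DESeq2 (log2 fold changes 0.46 ± 0.69 and -0.12 ± 0.75, SE).

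The accessory subunits of complex I, which surround the core, summed to 2986 and 5488 normalized counts in KO against 2137 and 5686 in WT, most of it from Ndufb10, a subunit of the membrane arm. Ndufb10 had 2023 and 3686 normalized counts in KO against 1363 and 4113 in WT. Both replicate 2 libraries were higher than both replicate 1 libraries, and the groups overlapped, giving a log2 fold change of 0.06 ± 0.54 (SE) and an adjusted p of 0.992 by DESeq2. Without WT replicate 1 it was -0.53 and without WT replicate 2 it was 1.04. A single site of Ndufb10 held 36.3% of all member reads. Ndufa6, an accessory subunit of the LYR-motif family, had 508 and 1041 normalized counts in KO against 191 and 670 in WT. WT replicate 1 was lowest there by far, and the log2 fold change was 0.85 ± 0.59 (SE) with an adjusted p of 0.77 by DESeq2. Ndufa6 was called, of the alternatives run, only when WT replicate 2 was left out, giving a log2 fold change of 1.99 and an adjusted p of 0.0983. The log2 fold change was 0.21 without WT replicate 1 and 0.24 without KO replicate 2. Ndufa5, an accessory subunit of the matrix arm, had 81.9 and 154 normalized counts in KO against 156 and 264 in WT. The upper KO library and the lower WT library were almost level, and the log2 fold change was -0.84 ± 0.56 (SE) with an adjusted p of 0.742 by DESeq2.

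Other values of complex I rested on single libraries. Ndufb4, a membrane arm subunit, had 7.33 and 28.8 normalized counts in KO against 82.7 and 17.4 in WT, a log2 fold change of -1.48 ± 0.99 (SE). The value came from WT replicate 1 and was 0.04 without it. Ndufa1, a small membrane subunit encoded on chromosome X, had 5.50 and 15.7 in KO against 8.41 and 47.3 in WT. Its log2 fold change of -1.41 ± 1.16 (SE) came from WT replicate 2 and was 0.30 without that library. Ndufc2, a membrane arm subunit named after its values were seen, had 1 and 5 reads in KO against 7 and 34 in WT. Its groups did not overlap, its log2 fold change was -3.45 ± 1.39 (SE), DESeq2 gave no adjusted p, and the adjusted p by edgeR was 0.271.

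Assembly factors of complex I, proteins that build the complex and do not stay in it, also had few reads. Ndufaf1 had 42.8 and 42.8 normalized counts in KO against 40.7 and 78.5 in WT. Ndufaf6 had 39.7 and 41.9 in KO against 16.8 and 26.1 in WT, and its groups did not overlap, giving a log2 fold change of 0.92 ± 0.84 (SE) and an adjusted p of 0.903 by DESeq2. Ndufaf2 had 8 and 41 reads in KO against 1 and 0 in WT. Of the 41 reads in KO replicate 2, 33 lay at 1 intronic site at which the other 3 libraries had 0 reads.

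Complex II, which oxidizes succinate and has no subunit in mitochondrial DNA, was measured in all 4 genes. Sdha, the flavoprotein, had 274 and 262 normalized counts in KO against 244 and 432 in WT, giving a log2 fold change of -0.34 ± 0.48 (SE). Sdhc and Sdhd, the membrane anchors, had 80.0 and 54.2 and then 17.7 and 24.5 in KO, and 50.5 and 73.5 and then 9.82 and 22.4 in WT. All 3 overlapped between groups. Sdhb, the iron-sulphur subunit, had 17.7 and 6.12 in KO against 29.5 and 28.7 in WT. Both WT libraries were higher there, and the log2 fold change was -1.27 ± 1.03 (SE) with an adjusted p of 0.866 by DESeq2.

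Complex III had the smallest spread between replicates of any complex (SD 0.124 on the log2 scale). Its total was 1660 and 1949 normalized counts in KO against 1878 and 1765 in WT, a log2 ratio of -0.01. Uqcrh, the hinge protein beside cytochrome c1, had 1168 and 1383 in KO against 1458 and 1229 in WT. Uqcrb, which lies near the ubiquinone site, had 425 and 477 in KO against 367 and 466 in WT. Log2 fold changes were -0.08 with a 95% interval of -0.86 to 0.71 for Uqcrh and 0.11 with an interval of -0.74 to 0.97 for Uqcrb. Uqcrq, a small subunit, had 46.4 and 42.8 in KO against 22.4 and 32.4 in WT, with an adjusted p of 0.929 by DESeq2. The most abundant site of Uqcrq, with 70.7% of its reads, was antisense to an exon, so those reads may not be Uqcrq transcripts, and without intronic and antisense sites its log2 fold change went from 0.70 to 0.12. Cycs, the cytochrome c of somatic cells, had 5 and 12 reads in KO against 1 and 4 in WT and was not tested.

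Complex IV, cytochrome c oxidase, had 14 of its 20 listed genes analysed and summed to 241 and 335 normalized counts in KO against 207 and 366 in WT, a log2 ratio of 0.01. Cox7a1, the isoform of heart and skeletal muscle, had 50.7 and 34.1 in KO against 25.2 and 46.1 in WT. Cox7a2, the isoform of most tissues, had 12.8 and 17.5 in KO against 22.4 and 27.4 in WT, with an adjusted p of 0.952 by DESeq2. Cox7a2l, a related protein, had 15.3 and 17.5 in KO against 4.21 and 33.6 in WT. Groups overlapped for Cox7a1 and Cox7a2l but not for Cox7a2. A site antisense to an exon and an intronic site each held 38.4% of the reads of Cox7a1. Without intronic and antisense sites its log2 fold change turned from 0.25 to -1.11.

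The other muscle isoforms overlapped between KO and WT. Cox6a2 had 20.8 and 32.3 normalized counts in KO against 23.8 and 26.1 in WT, giving a log2 fold change of 0.08 ± 0.90 (SE). Cox8b had 23.2 and 26.2 in KO against 21.03 and 46.1 in WT, giving a log2 fold change of -0.45 ± 0.88 (SE). The 95% intervals of both genes reached beyond 1 log2 unit in either direction. Cox5b had 37.3 and 25.3 in KO against 16.8 and 42.3 in WT. All reads of Cox5b lay at 1 intronic site and 1 site antisense to an exon, so they may not be Cox5b transcripts. Cox5a had 12.8 and 45.4 in KO against 8.41 and 16.2 in WT, giving a log2 fold change of 1.23 ± 1.08 (SE) and an adjusted p of 0.891 by DESeq2. Both are subunits found in all tissues, and KO replicate 2 stood apart for Cox5a, whose log2 fold change was 0.066 without it. Cox4i1 had 17 reads in all and was not tested. Cox4i2, Cox6a1, Cox8a and Atp5g2, the partners of these isoforms and of those of complex V, were not analysed here.

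Complex V had the lowest ratio of the complexes with more than 1 gene. Its 12 analysed genes summed to 578.5 and 848 normalized counts in KO against 789.5 and 1108 in WT, a log2 ratio of -0.41. The groups overlapped, and the ratio lay between -0.71 and -0.15 when each library was left out in turn. Atp5b, the catalytic subunit β, had 185 and 315 in KO against 331 and 415 in WT. Its neighbour in the catalytic head, subunit α (Atp5a1), had 193 and 266 in KO against 276 and 421 in WT. Both KO libraries lay below both WT libraries for each gene, but the nearest libraries differed by little. The log2 fold changes were -0.58 ± 0.48 (SE) and -0.61 ± 0.48 (SE), with adjusted p-values of 0.876 and 0.853 by DESeq2. Leaving out 1 library gave -1.01 (without KO replicate 2) to -0.23 (without KO replicate 1) for Atp5b and -0.88 (without WT replicate 1) to -0.30 (without WT replicate 2) for Atp5a1. The most abundant site of Atp5b was antisense to an exon and held 36.4% of its reads, and without intronic and antisense sites its log2 fold change was -0.19.

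The remaining named genes of complex V went different ways. Atp5k, subunit e of the membrane part, had 104 and 111 normalized counts in KO against 64.5 and 144 in WT, giving a log2 fold change of 0.04 ± 0.60 (SE). Its pseudogenes Atp5k-ps1 and Atp5k-ps2, outside the members, had sites with up to 169 and 302 normalized counts, and near-identical copies may share reads. Atp5g1 and Atp5g3 encode the same mature subunit c of the rotating ring. Atp5g1 had 3 and 4 reads in KO against 1 and 7 in WT. Atp5g3 had 4 and 67 reads in KO against 5 and 3 in WT, and 58 of the 67 lay at 1 site at which the other 3 libraries had 0 reads. Its log2 fold change of 2.50 ± 1.38 (SE) had the smallest adjusted p of any member, 0.595 by DESeq2, and was -1.12 without KO replicate 2.

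**Figure D2:**
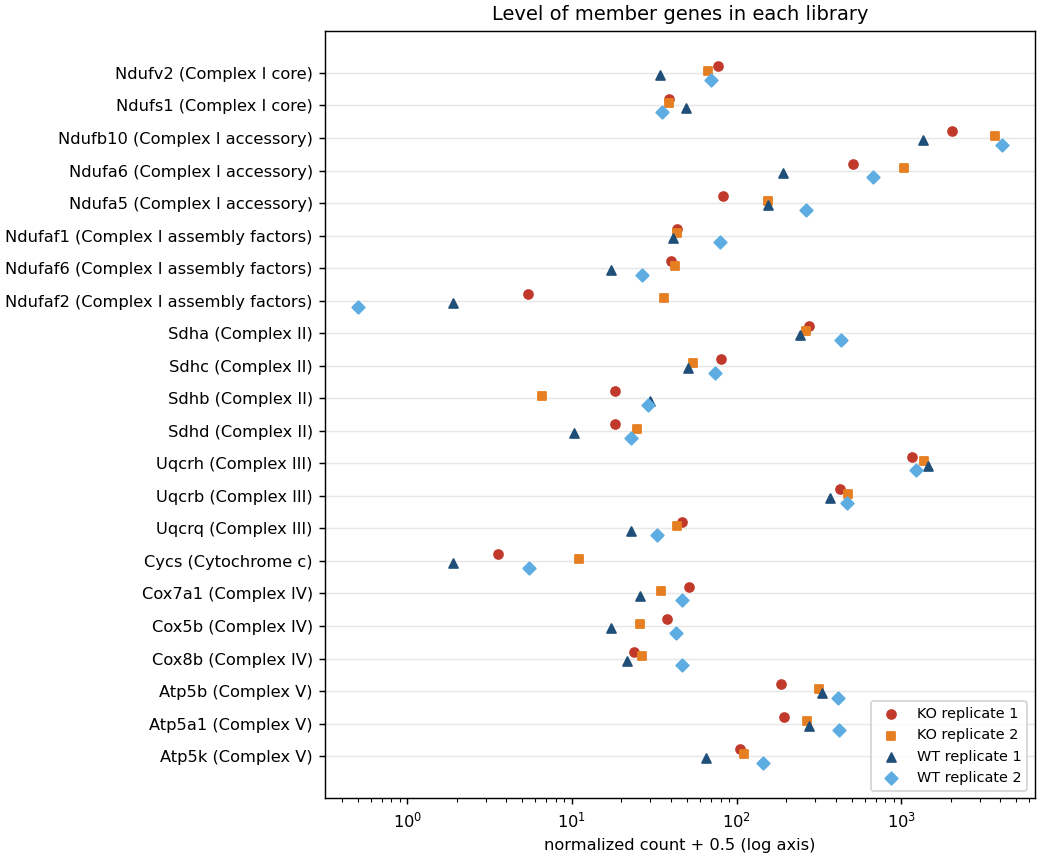
Normalized counts plus 0.5 on a log axis for abundant genes of each complex, with 1 point for each library (KO red and orange, WT dark and light blue). For most genes the 2 colours interleave, and WT replicate 1 (dark triangles) is often the lowest point, as for Ndufa6 at 191 against 508 to 1041 in the KO libraries.

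Single sites and the use of sites within genes gave a similar account. DESeq2 called 1 of 68 tested member sites, against 3.21% of 11112 sites. That site lay in an intron of Ndufb4 at chr16:37650038-37650066 (GRCm38) on the minus strand, 4327 bp from the annotated start. It held 47 reads in WT replicate 1 and 0 in the other 3 libraries, and its adjusted p was 0.0361 by DESeq2. Without WT replicate 1 it held no reads. At an unadjusted p under 0.05 by DESeq2 there were 4 of the 214 member sites, and the share over all sites was not counted. The others, named after their values were seen, were sites of Atp5g3 and Ndufaf2 seen only in KO replicate 2 and a site of Ndufa4, the complex IV subunit, with 12 and 28 reads in KO and 0 in both WT libraries. The edgeR test called 0 of 74 sites, with 0 at an unadjusted p under 0.05, and its share over all sites was not counted either. The share of a gene taken by each of its sites could be compared with diffSpliceDGE in 14 members. Here 0 were called, with 0 at an unadjusted p under 0.05, against 1.37% of 2184 genes called.

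Members had 1 to 15 sites per gene, with the highest number in Sdha, and 54 of the 72 had more than 1. Sites contained in an annotated transcript made up 44.9% of member sites and 38.6% of all sites with a gene. Intronic sites made up 28% and 52%, and sites that run from an exon into an intron 12.1% and 3.2%. Sites with another overlap of an exon, such as those that extend past the annotated start, were 6.07% and 1.84%. They held 54.7% to 65.9% of member reads. Most of these reads lay at single sites of Ndufb10, Uqcrh and Ndufa6, with 11774, 5500 and 2055 reads in all. For Sdha and Atp5b, in contrast, few reads lay at the start. The site 13 bp from the start of Sdha had 9 and 7 reads in KO and 0 and 5 in the WT pair, while its most abundant site lay 10539 bp downstream and had 144 and 110 against 52 and 134 reads. The site 1 bp from the start of Atp5b had 9 and 4 reads in KO and 0 and 6 in the WT pair, of 302 and 361 reads of the gene in KO and 236 and 333 in the WT pair.

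More of the members' reads than of other genes' reads lay near annotated starts in each of the 4 libraries. Sites were compared with annotated gene starts of RefSeq (GRCm38.p6), which were available for 59 of the 72 members. In KO, 74.8% and 79.6% of the sense reads of members lay within 100 bp of a start, and in WT 67.8% and 76.2% did. Over 6622 other genes the shares were 6.21% and 9.54% in KO against 8.31% and 10.5% in WT. Most of the remaining reads lay over 1000 bp downstream in both sets, and member sites over 5000 bp from the start held 11.5% to 18.5% of reads, against 69.1% to 75.4% in other genes.

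Much of this share came from a few genes. Without Ndufb10 it was 58.6% and 62.3% in KO against 53.8% and 53.9% in WT. Without Ndufb10, Uqcrh and Ndufa6 it was 19.9% and 24.3% in KO against 11.9% and 22.3% in WT, which was still above other genes in each library. As a mean over genes with at least 10 reads, each counted once, the share was 25.9% to 35.5% in members and 5.16% to 7.44% in other genes. The median over the same member genes was lower, at 7.53% and 18.4% in KO against 2.13% and 7.41% in WT. In other genes the median was 0 in each library. Both KO libraries lay above both WT libraries in the members without Ndufb10 and, by little, in the median of the members. KO and WT overlapped in the other sets.

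Gene length moved with the share. The median span of the members was 7744 bp, against 34486 bp in other genes. Among genes with a span under 20000 bp, a limit chosen after the data were seen, the share was 75.9% to 85.8% in members and 19.4% to 28.3% in other genes. For longer genes it was 3.86% to 16.6% and 1.34% to 2.92%. With all members counted, they lay above other genes within both classes of span. The shorter class held Ndufb10, Uqcrh and Ndufa6, whose reads near a start made up most of its share. Whether the remaining short members lay above other short genes was not tested. The longer class rested on 9 member genes, with 363 to 946 sense reads per library. The part of length within each class was not tested.

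**Figure D3:**
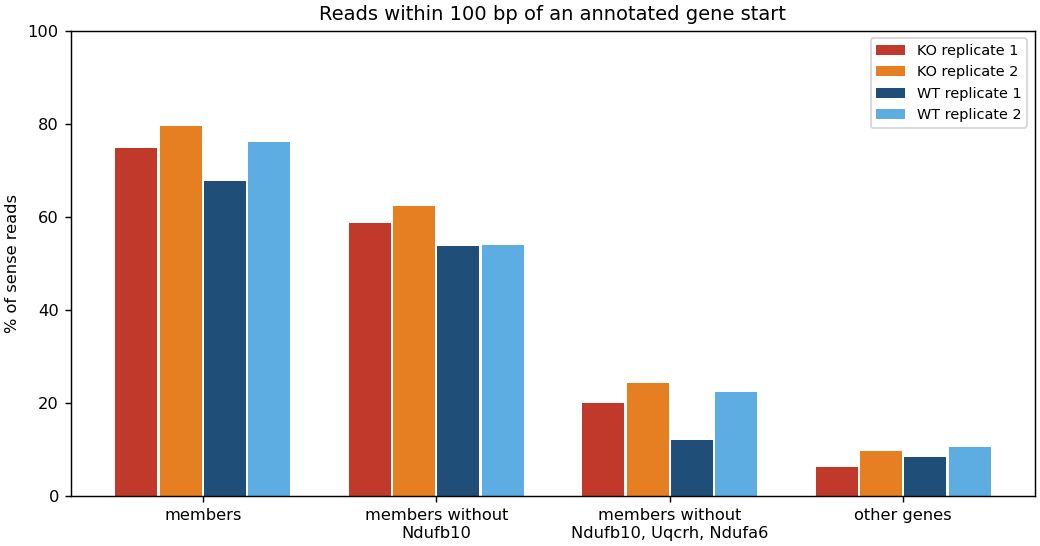
Percent of sense reads within 100 bp of an annotated gene start (vertical axis, 0 to 100), with 1 bar for each library, for all members, for members without the most abundant genes and for other genes. The bars of the members reach 67.8% to 79.6%, and those of other genes stay between 6.21% and 10.5%.

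Sequences are shown for the genes named for their level whose most abundant site lay near a start, since the first 3 of them carry most member reads. Each runs 30 bases on the transcribed strand, from 24 bases before the listed position of the site to 5 after it, with that position in capitals, and was read from the RefSeq promoter table (GRCm38.p6). Ndufb10 at chr17:24724381-24724410, Ndufa6 at chr15:82354245-82354274, Uqcrh at chr4:116075065-116075094, Atp5k at chr5:108434370-108434399 and Cox8b at chr7:140900412-140900441 are all on the minus strand.
Ndufb10: tcccgcgtccttagcgggcccagcGgatcc
Ndufa6: ggcaccgcgcgtgcgcacgctgaaGgggcg
Uqcrh: aggagtatgccgcacttccggccaGgtcgc
Atp5k: gcctcagttgagcttccggcgcgaAggtca
Cox8b: ataaaaagccccagctggctacctAagtgg
The listed position lay at the annotated start in Uqcrh (0 bp) and 24 to 41 bp downstream of it in the other 4 genes. Letters could be read only for sites near a start that lay in the promoter window, which ends 50 bases after the start. These were 26 of the 29 member sites within 100 bp, and 737 sites of other genes. A pyrimidine followed by a purine is the pair at which transcription most often begins. It stood at 4 of the 26 member sites (15.4%) and at 22.1% of the 737 sites of other genes. If letters were evenly spread it would be 25%, so the listed positions did not mark this pair in either set. The commonest pair in both was GG, at 26.9% and 13.7%.

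Letters of known promoter motifs were counted on both strands of windows from 250 bases before to 50 after the start. The first listed window of each gene was used, for 59 members and for all 27025 genes with a window. The latter were not limited to genes with reads in these libraries. The core of the NRF1 site (GCATGCG), a factor known for respiratory genes, was in 13.6% of members and 3.64% of all genes with a window. The ETS core (CCGGAAG), read by GABP among others, was in 20.3% and 9.12%, and the YY1 core (AAGATGG) in 16.9% and 6.48%. The element of the ERR receptors (AAGGTCA) was in 10.2% and 4.66%. The GC box (GGGCGG) was in 47.5% and 35.9%, and the TATA box (TATAAA) was in 8.47% and 14.2%. No motif contains another, and a match is a run of letters and not a site shown to be bound. Atp5k held the NRF1, ETS and ERR letters, and Cox8b was among the 5 members with the TATA letters.

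For the 3 genes with most reads near a start, the 120 bases before the start are given on the transcribed strand, with NRF1 or ETS letters in capitals, to place these motifs beside the sites shown above. They are Ndufb10 at chr17:24724424-24724543, Uqcrh at chr4:116075071-116075190 and Ndufa6 at chr15:82354292-82354411 (RefSeq, GRCm38.p6).
Ndufb10: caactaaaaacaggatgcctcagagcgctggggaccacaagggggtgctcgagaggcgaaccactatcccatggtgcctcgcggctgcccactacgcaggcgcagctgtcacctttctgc
Uqcrh: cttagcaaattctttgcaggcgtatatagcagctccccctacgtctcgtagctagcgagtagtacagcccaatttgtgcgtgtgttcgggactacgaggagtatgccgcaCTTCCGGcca
Ndufa6: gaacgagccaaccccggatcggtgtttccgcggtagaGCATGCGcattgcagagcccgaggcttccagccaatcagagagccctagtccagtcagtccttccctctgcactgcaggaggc
Uqcrh held the ETS core in reverse at positions -10 to -4 from the start, and Ndufa6 held the NRF1 core at -83 to -77. Neither was in the stretch of Ndufb10.

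Members differed between replicates of a genotype. Of 52 members with at least 40 reads, 42 (80.8%) were higher in WT replicate 2 than in WT replicate 1, with a median log2 ratio of 0.79, and 39 (75%) were higher in KO replicate 2 than in KO replicate 1, with a median of 0.46. In other genes these shares were 48.8% and 50.05%. Summed over all members the level was 6117 and 9271 normalized counts in KO against 5553 and 9768 in WT. Thus each group held a lower and a higher library, and the difference between genotypes (log2 ratio 0.01) was smaller than that between replicates.

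In KO this was seen more often at sites near a start, and in WT as often elsewhere. Of 14 member sites near a start with at least 40 reads, 14 were higher in KO replicate 2 than in KO replicate 1 and 11 (78.6%) were higher in WT replicate 2 than in WT replicate 1. At 35 member sites elsewhere the shares were 54.3% in KO and 77.1% in WT. WT replicate 1 was the lowest library at 9 of the 14 (64.3%) and KO replicate 1 at 4 (28.6%), while at 331 sites near the starts of other genes these shares were 36.6% and 50.45%. At the start of Ndufa6 the normalized count was 398 and 838 in KO, 48.9 in WT replicate 1 and 511 in WT replicate 2. At the start of Ndufs4, an accessory subunit of complex I, it was 32.2 and 44.9 in KO, 5.43 in WT replicate 1 and 48.5 in WT replicate 2. Uqcrh went the other way in WT, with 1411 in replicate 1 and 1140 in replicate 2.

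Replicate 2 also exceeded replicate 1 at the starts of other genes. Of 331 sites near a start in other genes, 84.3% were higher in KO replicate 2 and 74.3% in WT replicate 2, against 46.1% and 44.2% of sites elsewhere. The median log2 difference between KO and WT at the 14 member sites was 0.31, but -0.30 without WT replicate 1 and 1.14 without WT replicate 2. All 12 skeletal muscle markers were higher in replicate 2 of both genotypes, and they summed to 28500 and 42120 normalized counts in KO against 28490 and 48720 in WT. Adipocyte markers, of which 5 of 9 were analysed and 0 were at 0 in any library, summed to 5881 and 2943 in KO against 5829 and 3262 in WT, almost all of it Fabp4, and 3 of the 5 were higher in KO replicate 2 but 0 in WT replicate 2. The part of muscle and fat content in the members' levels was not tested.

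**Figure D4:**
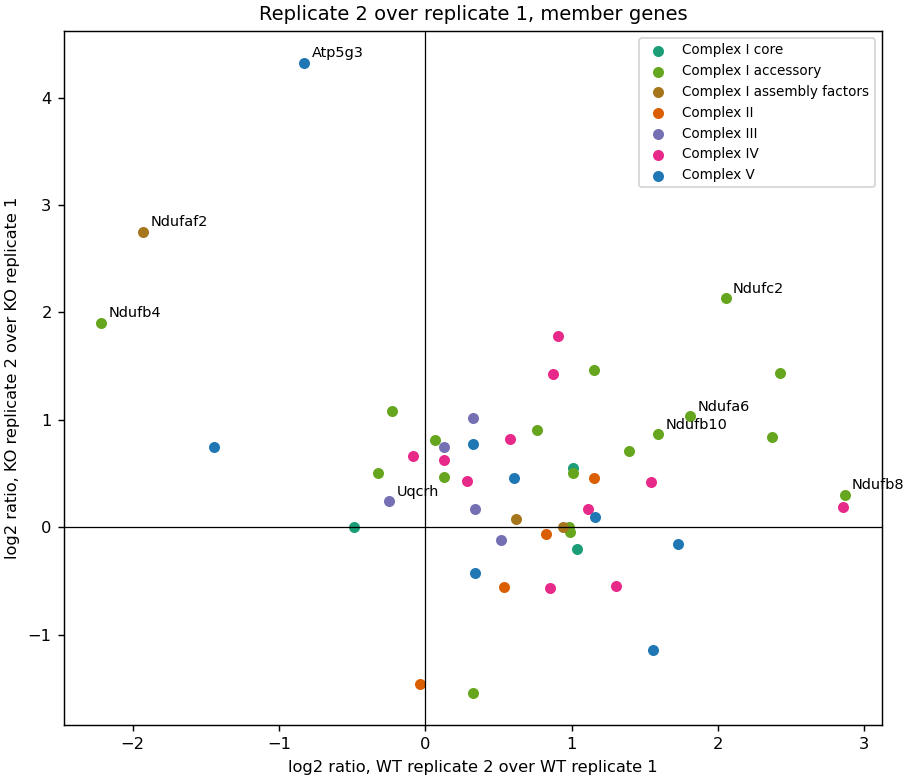
Log2 ratio of replicate 2 over replicate 1 in WT (horizontal) and in KO (vertical) for the 52 member genes with at least 40 reads, coloured by complex. Most points lie to the right of 0 (42 genes) and above 0 (39 genes), while Ndufb4, Ndufaf2 and Atp5g3 lie at the upper left, where single libraries hold most reads.

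Genes that work with the members were compared in the same way. Subunits encoded by mitochondrial DNA, the partners of complexes I, III and IV, were analysed for 10 of 13 listed genes. The log2 fold change was below 0 in each of the 7 genes tested, from -0.65 to -0.07 with a median of -0.45. Both KO libraries lay below both WT libraries in 3 of the 7, against 19.4% of all tested genes. The sums overlapped, with 38230 and 53330 normalized counts in KO against 49630 and 66590 in WT. DESeq2 called 0 of the 7, with 0 at an unadjusted p under 0.05. The lowest was ND2, with 7183 and 9380 normalized counts in KO against 13380 and 12700 in WT and an adjusted p of 0.668 by DESeq2. These transcripts are cut from long shared precursors, so the 7 values are not independent.

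Assembly factors outside the rule were analysed for 25 of 44 listed genes, and of 6 tested 0 were called by DESeq2. Uqcc2, an assembly factor of complex III, had 246 and 305 normalized counts in KO against 449 and 750 in WT. Its groups did not overlap, and the log2 fold change was -1.12 ± 0.46 (SE) with an adjusted p of 0.282 by DESeq2. Uqcc1, which acts with it, had 6.11 and 13.1 in KO against 19.6 and 57.3 in WT, with an adjusted p of 0.499 by DESeq2. Of the 25 genes, 3 had an unadjusted p under 0.05 by DESeq2, against 677 of all 9838 genes.

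Among enzymes of pyruvate oxidation and the citric acid cycle, 1 of 14 tested genes was called, against 2.67% of all genes tested. Ogdh, a subunit of 2-oxoglutarate dehydrogenase, had 3244 and 2365 normalized counts in KO against 689 and 1436 in WT. Its log2 fold change was 1.40 ± 0.47 (SE) with an adjusted p of 0.0995 by DESeq2. That lay just under the limit of 0.1, and the call was not examined under the alternatives. Of 5 tested carriers of ADP, ATP and phosphate and of outer membrane pores, 0 were called, with 0 at an unadjusted p under 0.05, and Slc25a4, the ADP and ATP carrier of muscle, had 390 and 471 in KO against 461 and 664 in WT.

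Markers of fibre type and of other cells were set beside these values. Slow fibre markers, from fibres rich in mitochondria, had a median log2 fold change of 0.55 over 7 tested genes, with 0 called and 0 at an unadjusted p under 0.05. Their sum was 1202 and 1691 normalized counts in KO against 559.5 and 1306 in WT, and all 8 analysed markers were lowest in WT replicate 1. Fibroblast markers were below 0 in each of 6 tested genes with a median of -0.56, 0 called and 1 at an unadjusted p under 0.05, and summed to 2852 and 2521 in KO against 3768 and 3653 in WT. Blood markers summed to 58.6 to 168, endothelial markers to 61.1 to 149 and Schwann cell markers to 8.72 to 40.2. Their part in the members' levels was not tested.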

How the data were processed

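Per the labels, 4 WTSS-seq libraries of mouse muscle were used, 2 KO and 2 WT. The authors deposited 1 table of raw read counts per clustered 5′ end, with a gene symbol and a Cuffcompare class code for each site. Coordinates are those of GRCm38 (GRCm38.p5 in the submitters' processing notes), counted from 1. Mapping and clustering were described for the sister 3′-end libraries, and settings for 5′ ends are not given in the sources used here. Reads were not counted by molecular identifiers, so floors cover counting error only.

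Gene counts were the sums of all sites that carried a symbol. Sites and genes were fitted over the whole table with DESeq2 1.42.0 (R 4.3.3), following the study, with median-of-ratios size factors, default independent filtering (mean normalized count above 8.76 for sites and 16.5 for genes) and adjusted p under 0.1. Normalized counts are counts divided by size factors. The quasi-likelihood test and diffSpliceDGE (Simes) of edgeR 4.0.16 with filterByExpr and TMM factors were run beside it. Position and letters came from RefSeq tables of GRCm38.p6, in Python 3.11.15 with pandas 2.3.3. Scripts were tested on simulated data. Only 7 of the 214 member sites overlapped another annotated gene, with 0.435% of member reads.

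Members and lists were chosen with earlier results of these data known. Named genes were members with any call, the 3 with the largest mean per complex and assembly group, all of complex II, the 3 most positive and 3 most negative tested log2 fold changes, and the isoform sets of Cox4, Cox6a, Cox7a, Cox8 and Atp5g. Alternatives were edgeR, other size factors, filters and thresholds, each library left out, a replicate block, subsets of sites and other windows. Complex sums, medians, positions and letters had no test. Of the named genes, 1 is not reported here.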

Additional observations from a re-analysis of the deposited data

How the results depend on the processing

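The count of 0 member genes called held under edgeR, the other filters, size factors and thresholds, the replicate block in DESeq2 and in edgeR, primary chromosomes only and no intronic or antisense sites, and rose to 1 (Ndufa6, higher in KO) without WT replicate 2 (range 0 to 1 up and 0 to 0 down when each library was left out). Usage called 0 members throughout. Calls over all genes were not counted under the alternatives, so their counts of 0 cannot be set beside a share of all genes. The 1 member site called lower in KO became 0 with edgeR, after filterByExpr, without independent filtering, with poscounts size factors, with library totals, and with the replicate block in DESeq2 and in edgeR, and ranged from 0 to 1 when a library was left out. Sites called higher in KO ranged from 0 to 1. The cause was not tested. The deviations of same-numbered libraries had a correlation of 0.0703 over 10728 sites and 0.0663 over 6008 genes. Over the 52 members with at least 40 reads it was -0.247. Near starts, replicate 2 was higher in both genotypes at 63.4% of 331 sites of other genes and 78.6% of 14 member sites. Elsewhere these shares were 22.2% and 34.3%. Whether same-numbered libraries form pairs was not tested. With the block the median of the members was 0.10 in DESeq2 and 0.03 in edgeR.

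Leaving out 1 library moved the median log2 fold change of the members between -0.39 and 0.37. The log2 ratio of summed counts ranged from -0.42 to 0.96 for complex I accessory subunits, -0.07 to 0.51 for complex I assembly factors, 0.01 to 0.30 for complex I core, -0.60 to 0.11 for complex II, -0.12 to 0.11 for complex III, -0.35 to 0.44 for complex IV, -0.71 to -0.15 for complex V and -0.06 to 2.24 for cytochrome c. Without intronic and antisense sites it was -0.27 for the assembly factors and -0.063 for the core. Without the most abundant gene it was 0.75 for the assembly factors, -0.059 for the core and 0.15 for complex III. Of 32 named genes, 20 changed sign under at least 1 alternative, of which 3 were further than 1 SE from 0. These were Atp5g3 (-1.12 to 3.46 when a library was left out, lowest without KO replicate 2), Ndufa1 (-2.34 to 0.30, highest without WT replicate 2) and Ndufb4 (-2.76 to 0.044, highest without WT replicate 1). Of 462 recomputed values of named genes, 447 moved by 1 SE or less. Depth was lowest in WT replicate 1, and 28 of 72 members had too few reads for an adjusted p.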
